A study of Mus musculus with 6 samples.

Results

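Mouse genes that glucocorticoid hormones induce in many tissues, Tsc22d3, Fkbp5, Sgk1, Errfi1, Ddit4, Cebpd, Zbtb16 and Gadd45g, were followed in the livers of mice made chronically hyperlipidemic with poloxamer P-407. These 8 were chosen by their annotated gene symbol, as 8 of 17347 genes that a single-gene feature named on either array type. The oligonucleotide array carried 1 feature for each of the 8, and the cDNA array carried 1 feature for each of 6, with none for Errfi1 or Ddit4. The treated group was 12 female C57BL/6 mice, 7 weeks old at the start, that received 0.5 g/kg P-407, a surfactant copolymer that blocks the clearance of blood lipids, into the abdomen every 3 days for 96 days. The control group was 4 female C57BL/6 mice of the same age that received saline on the same days, and both groups ate chow with 4.4% fat. Liver RNA of the treated mice formed 3 pools and that of the control mice 1 pool, each pool was split over both array types, and all 6 arrays compared a treated pool (Cy5) with the 1 control pool (Cy3). The pooled RNA gives no values of single mice.

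Corticosterone, the glucocorticoid of mice, binds the glucocorticoid receptor, which waits in the cytosol with heat shock proteins, moves to the nucleus and binds palindromic response elements near its target genes. In liver the receptor is known for driving amino acid breakdown and glucose production and for restraining inflammatory genes. Tsc22d3 encodes GILZ, a leucine zipper protein that carries part of the anti-inflammatory action, and Fkbp5 encodes a co-chaperone that lowers the affinity of the receptor for hormone. Errfi1 encodes an inhibitor of the EGF receptor, Ddit4 an inhibitor of the growth kinase mTOR, and Sgk1 a kinase of ion transport and survival. Cebpd and Zbtb16 encode transcription factors and Gadd45g a small stress protein of growth arrest. Each gene also answers to signals other than glucocorticoids.

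Values are log2 ratios of treated over control, so a negative value means less RNA in the treated livers. This direction was read from the titles, which name treated before untreated mice with treated RNA in Cy5, and no file states the numerator. With the ratio turned, every lower gene would be higher by the same amount, and every rank from the lowest would be a rank from the highest. A gene was called where limma's adjusted p, over every gene measured in all 3 pools, was under 0.05. The median gene's SD over the 3 pools was 0.077 on the oligonucleotide array (16871 genes) and 0.32 on the cDNA array (5011 genes). The files hold ratios only, so levels, signal over background and the presence of liver markers could not be read. Precision is limited by having 3 pools.

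The promoter sequences of these genes are shown because 6 of them were called lower together on the oligonucleotide array. RefSeq windows (GRCm38.p6) were at hand for 6 of the 8 genes, with 14 transcript starts in all, and Cebpd and Zbtb16 are only named. For each gene the 250 bases before the start with the most motif matches are given, 5′ to 3′ in the direction of the gene, and capitals mark the matches.
Tsc22d3, chrX:140600523-140600772, minus strand: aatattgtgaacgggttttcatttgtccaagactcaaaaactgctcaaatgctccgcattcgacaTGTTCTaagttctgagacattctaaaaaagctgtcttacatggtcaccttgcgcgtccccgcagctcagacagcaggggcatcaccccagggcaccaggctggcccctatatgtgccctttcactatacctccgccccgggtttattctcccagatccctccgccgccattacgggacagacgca
Fkbp5, chr17:28486150-28486399, minus strand: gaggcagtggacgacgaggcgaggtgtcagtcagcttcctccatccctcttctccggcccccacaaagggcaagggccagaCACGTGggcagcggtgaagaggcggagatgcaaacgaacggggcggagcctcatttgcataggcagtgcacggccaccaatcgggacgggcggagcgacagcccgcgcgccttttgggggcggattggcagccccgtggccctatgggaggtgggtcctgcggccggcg
Errfi1, chr4:150854820-150855069, plus strand: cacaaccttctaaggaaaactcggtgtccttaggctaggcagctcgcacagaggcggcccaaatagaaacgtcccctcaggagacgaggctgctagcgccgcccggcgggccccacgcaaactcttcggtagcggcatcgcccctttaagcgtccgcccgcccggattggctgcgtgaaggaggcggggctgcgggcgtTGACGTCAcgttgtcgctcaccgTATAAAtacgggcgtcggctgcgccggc
Ddit4, chr10:59951771-59952020, minus strand: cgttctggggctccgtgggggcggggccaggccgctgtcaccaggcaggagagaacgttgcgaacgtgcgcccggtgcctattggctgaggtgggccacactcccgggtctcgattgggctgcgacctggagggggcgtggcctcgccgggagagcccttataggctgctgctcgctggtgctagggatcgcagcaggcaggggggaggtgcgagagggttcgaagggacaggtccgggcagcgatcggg
Sgk1, chr10:21993640-21993889, plus strand: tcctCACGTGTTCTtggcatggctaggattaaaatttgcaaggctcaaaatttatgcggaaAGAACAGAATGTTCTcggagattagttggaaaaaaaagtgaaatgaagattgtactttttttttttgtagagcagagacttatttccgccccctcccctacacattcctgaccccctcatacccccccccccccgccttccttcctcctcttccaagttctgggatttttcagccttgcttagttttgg
Gadd45g, chr13:51846425-51846674, plus strand: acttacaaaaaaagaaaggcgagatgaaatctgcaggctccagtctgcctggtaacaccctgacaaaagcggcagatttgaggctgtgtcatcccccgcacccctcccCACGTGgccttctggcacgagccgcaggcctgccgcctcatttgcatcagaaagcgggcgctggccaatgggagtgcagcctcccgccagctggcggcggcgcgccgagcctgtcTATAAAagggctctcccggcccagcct

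Motifs were searched on both strands of all 14 windows, from 250 bases before to 50 bases after each start. The core of a glucocorticoid response element, ACANNNTGT, was found in 2 windows, both of Sgk1, and 6.85% of all 32851 RefSeq windows hold it. The single arm AGAACA, which overlaps that core, was found in 4 windows, 1 of Tsc22d3 and 3 of Sgk1, against 19.0% of all windows. The fifth of the 6 Sgk1 starts holds both arms of the palindrome, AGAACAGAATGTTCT, from 189 to 175 bases before that start, at chr10:21993701-21993715. The same letters begin 965 bases before the sixth start. Both arms 3 bases apart, a pattern searched after this match was seen, are in 3 of the 32851 windows (0.00913%). In the same Sgk1 window another single arm overlaps the E-box CACGTG by 2 bases. The cAMP response element TGACGTCA was found at the second Errfi1 start, from 51 to 44 bases before it, and in 1.79% of all windows. E-boxes were in 3 windows, those of Fkbp5, Sgk1 and Gadd45g (7.15% of all windows), and the TATA box TATAAA in 4, of Sgk1, Errfi1 and Gadd45g (13.6% of all windows). The Ddit4 window held none of these letters. A match describes the sequence and does not show binding.

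**Figure D1:**
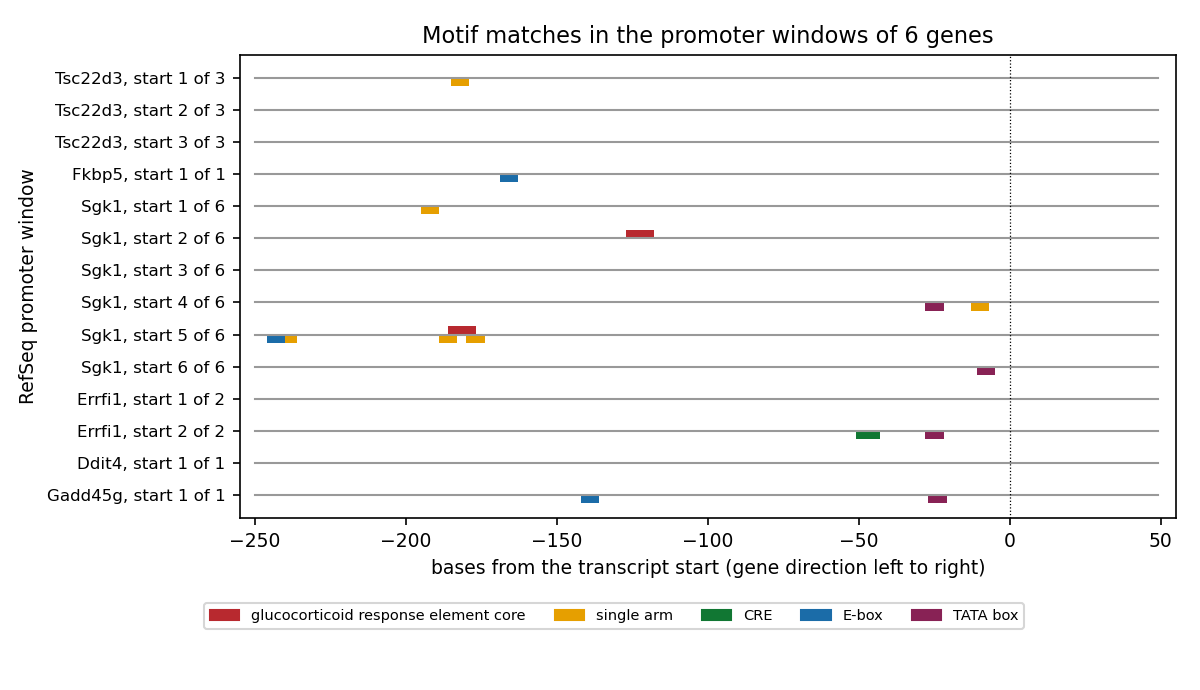
Motif matches in the 14 RefSeq promoter windows of 6 genes, with bases from the transcript start on the horizontal axis and 1 window per row. Coloured blocks are matches, and the fifth Sgk1 start shows a response element core spanned by 2 single arms from 189 to 175 bases before the start.

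All 8 genes had a mean ratio below 0 on the oligonucleotide array, and 6 of the 8 were called lower, 0 called higher. Tsc22d3 fell most, to 2.55-fold below control, followed by Errfi1, Ddit4 and Fkbp5 at 1.93-fold, 1.68-fold and 1.63-fold below. Sgk1 and Cebpd fell by less, and Zbtb16 and Gadd45g were not called. Over all 16871 genes tested, 21.4% were called lower (22% higher, 43.4% in all), so the count alone is read against a background in which calls are common. The background is thinner for size: 4 of the 8 genes had a mean of -0.5 or lower, which 2.26% of all genes had, and 1 of the 8 had a mean of -1 or lower, which 0.249% had. The median of the 8 was -0.50, against 0.00 for all genes. The 8 genes were chosen with earlier results of these data known, so these shares are a description only. In RNA of whole liver, fewer cells of a type and less RNA per cell cannot be told apart.

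**Figure D2:**
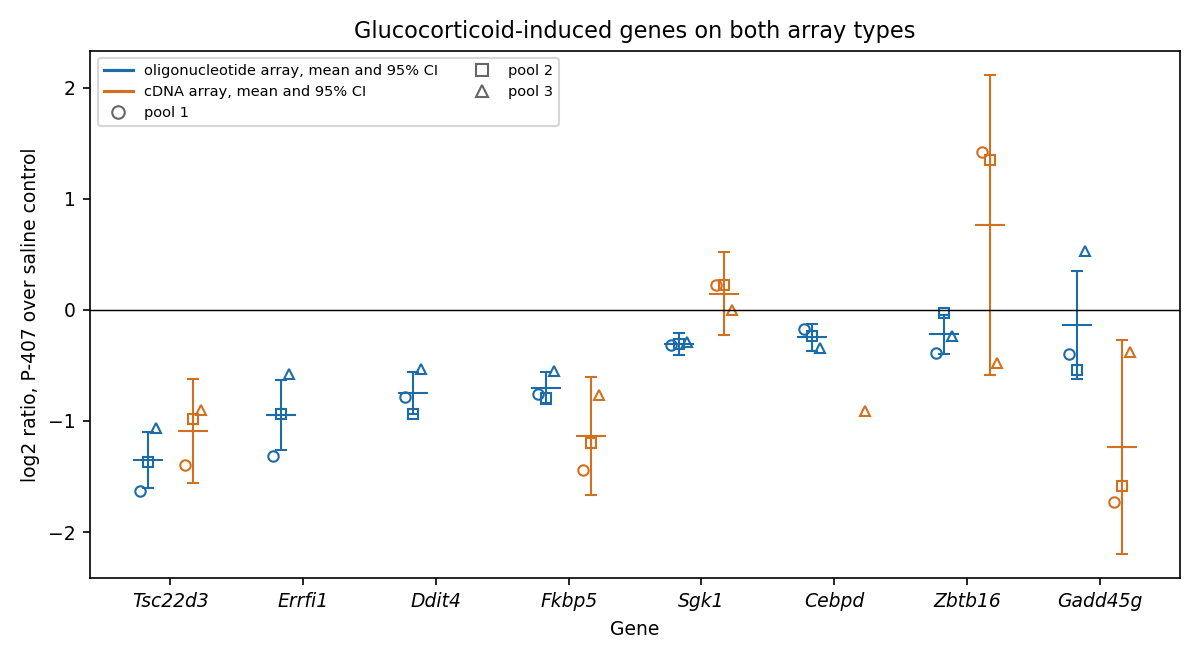
Log2 ratios of treated over control for the 8 genes (vertical axis), with 1 symbol per pool, bars for the mean and its 95% confidence interval, blue for the oligonucleotide and orange for the cDNA array. Tsc22d3 and Fkbp5 lie below 0 on all 6 arrays, while the cDNA values of Zbtb16 and Sgk1 have means above 0.

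The leading decrease was in the gene of the anti-inflammatory mediator GILZ. Tsc22d3 had log2 ratios of -1.63, -1.37 and -1.06 in pools 1, 2 and 3 on the oligonucleotide array, a mean of -1.35 ± 0.28 (SD, n = 3 pools, 95% CI -1.60 to -1.10, limma adjusted p = 6.65e-04). All 3 pools lay below control by more than 2-fold, and the mean was the 17th lowest of 16871 genes. If the deposited values were natural logs, which the labels do not settle, the log2 ratio would be -1.95. The cDNA ratios of Tsc22d3 were -1.40, -0.98 and -0.90, a mean of -1.09 ± 0.27 (adjusted p = 0.0984). The array types differed by -0.26 (oligonucleotide minus cDNA, 95% CI -0.78 to 0.26, adjusted p = 0.406).

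Fkbp5, the co-chaperone gene of receptor feedback, had ratios of -0.76, -0.79 and -0.55 on the oligonucleotide array, a mean of -0.70 ± 0.13 (95% CI -0.84 to -0.56, adjusted p = 8.23e-04). Its cDNA ratios were -1.44, -1.20 and -0.77, a mean of -1.14 ± 0.34 (adjusted p = 0.0991). All 6 arrays lay below 0, with pool 3 closest to 0 on both types, as for Tsc22d3. The array types differed by 0.43 (95% CI -0.06 to 0.92, adjusted p = 0.178). With both arrays of a pool averaged, Tsc22d3 was at -1.22 ± 0.27 and Fkbp5 at -0.92 ± 0.23, and these were the genes called of 5 that could be tested (adjusted p = 0.0394 and 0.0433), where 2.64% of 4702 genes were called lower (2.47% higher, 5.1% in all). Without pool 1 neither was called in that average (adjusted p = 0.356 for both), and without pool 2 neither was called (adjusted p = 0.288 for both). In these fits 0 of all 4938 and 0 of all 5120 genes were called. Keeping zeros also ended both calls (limma adjusted p = 0.0650 and 0.0700), as did the fit without a shared prior (0.145 and 0.154). Those settings likewise called 0 of all 6274 and 0 of all 4702 genes.

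The brakes on growth signalling fell as well, and both were measured on the oligonucleotide array only. Errfi1 had ratios of -1.31, -0.94 and -0.58, a mean of -0.95 ± 0.37 (95% CI -1.26 to -0.63, adjusted p = 0.00321). Its pools were the most spread of the 6 called genes, though all lay below 0. Ddit4 had -0.78, -0.93 and -0.53, a mean of -0.75 ± 0.20 (95% CI -0.94 to -0.56, adjusted p = 0.00152). In rank from the lowest, Errfi1 was 50th, Ddit4 105th and Fkbp5 129th of 16871 genes. The pool ranges of Tsc22d3 and Errfi1 overlapped, as did those of Errfi1 and Ddit4 and of Ddit4 and Fkbp5. Neighbours in this order were thus not separated by their ranges. Tsc22d3 was the lowest of these 4 in every pool, and its range (-1.63 to -1.06) lay wholly below those of Ddit4 and Fkbp5. The range of Fkbp5 lay wholly below that of Sgk1, the next gene, with a gap of 0.40 between their means.

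Sgk1, the kinase gene, had ratios of -0.32, -0.31 and -0.29 on the oligonucleotide array, a mean of -0.31 ± 0.01 (95% CI -0.40 to -0.21, adjusted p = 0.00273). Its pools were close together, but the decrease was small (1.24-fold). On the cDNA array it had 0.22, 0.22 and 0.00, a mean of 0.15 ± 0.13 (95% CI -0.22 to 0.52, adjusted p = 0.462). The types pointed opposite ways, with a difference of -0.45 (95% CI -0.73 to -0.18, adjusted p = 0.0540), and none of the 5 genes passed the test of that difference, which 11.4% of 4702 genes passed (5.17% lower and 6.25% higher on the oligonucleotide array). Without pool 3 the difference of Sgk1 was -0.53 and called (adjusted p = 0.0439), as were 22.3% of 4837 genes.

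Of the transcription factor genes, Cebpd, which takes part in the acute phase response, had -0.18, -0.23 and -0.34 on the oligonucleotide array, a mean of -0.25 ± 0.08 (adjusted p = 0.00944). On the cDNA array it was listed at 0, taken as not measured, for pools 1 and 2, and had -0.91 in pool 3, so it was not tested there. Zbtb16 had -0.39, -0.03 and -0.24 on the oligonucleotide array, a mean of -0.22 ± 0.18 (95% CI -0.39 to -0.04, adjusted p = 0.0507). It was called without pool 2 (-0.31, adjusted p = 0.0247) and with limma's robust prior (adjusted p = 0.0458), where 29.2% and 43.8% of all genes were. Its cDNA ratios were 1.42, 1.35 and -0.48, a mean of 0.76 ± 1.08 (95% CI -0.59 to 2.12, adjusted p = 0.321). The cDNA pools thus lay on both sides of 0, and the difference between array types was -0.98 (95% CI -2.31 to 0.34, adjusted p = 0.240). It was -1.60 without pool 3 (adjusted p = 0.0261), where the types differed for 22.3% of all genes.

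Gadd45g, the stress gene, split by pool. Its oligonucleotide ratios were -0.40, -0.54 and 0.53, a mean of -0.14 ± 0.58 (95% CI -0.62 to 0.35, adjusted p = 0.603). Its cDNA ratios were -1.73, -1.59 and -0.38, a mean of -1.23 ± 0.74 (95% CI -2.20 to -0.27, adjusted p = 0.129). Pools 1 and 2 lay below control on both types, and pool 3 was the highest on both. Without pool 3 Gadd45g was called lower on the oligonucleotide array (-0.47, adjusted p = 0.00509) and in the average of both types (-1.06, adjusted p = 0.0498). In these fits 37% and 7.71% of all genes were called in either direction. The array types differed by 1.10 (95% CI -0.05 to 2.25, adjusted p = 0.157), or by 1.19 without pool 3 (adjusted p = 0.0259), where 22.3% of all genes differed.

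Pool 3 gave the highest ratio for 6 of the 8 genes on the oligonucleotide array, and for 3 of 5 on the cDNA array. Among all genes called lower on the oligonucleotide array, pool 3 was the highest for 41.5%, and among all genes tested for 34.7%. On the cDNA array pool 3 was the highest for 33.3% of 5011 genes. The mean of the 8 genes was -0.72, -0.64 and -0.38 in pools 1, 2 and 3.

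**Figure D3:**
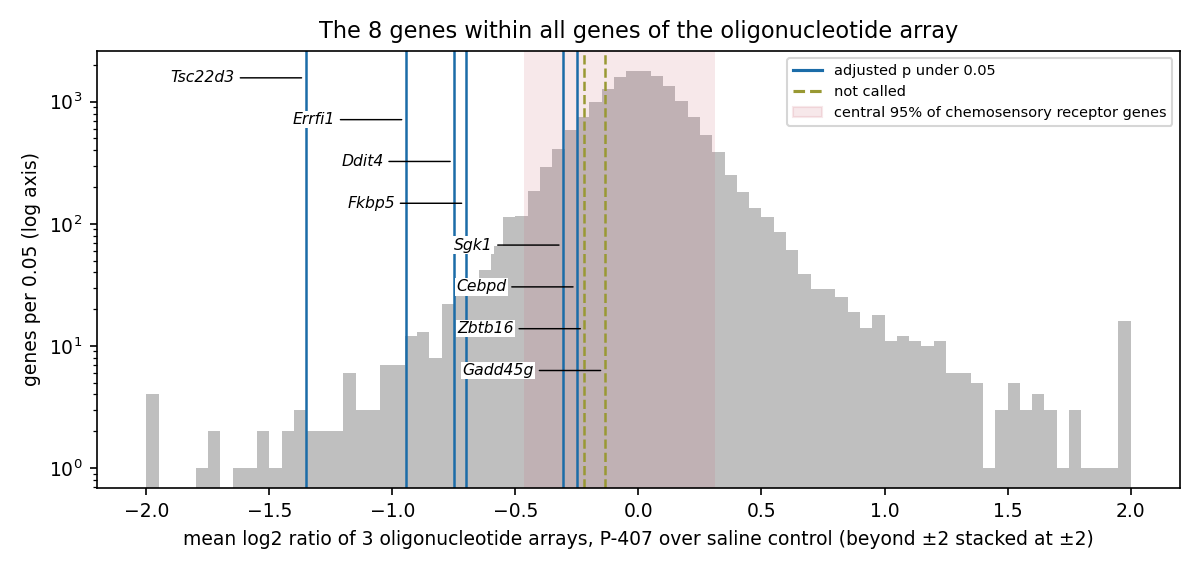
Histogram of the mean log2 ratio of 16871 genes on the oligonucleotide array (log vertical axis), with a line at each of the 8 genes and a shaded band for the central 95% of 860 chemosensory receptor genes. Tsc22d3, Errfi1, Ddit4 and Fkbp5 lie below the band and the other 4 genes inside it.

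A description of how far ratios stray for genes that liver is not known to use came from 860 chemosensory receptor genes. Their central 95% ran from -0.47 to 0.31 and their lowest mean was -0.92, and 24.9% of them were called lower. Tsc22d3, Errfi1, Ddit4 and Fkbp5 lay below that central range, and Tsc22d3 and Errfi1 below its lowest gene. Sgk1, Cebpd, Zbtb16 and Gadd45g lay inside it. The 1 control pool leaves the spread between control mice out of every interval here. Since treated RNA was always in Cy5, treatment and dye cannot be told apart. With a fit per gene that shared no spread across genes, 0 of the 8 genes were called (adjusted p from 0.0639 for Sgk1 to 0.132 for Errfi1 among the 6), where 0.237% of all genes were.

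On the cDNA array limma called 0 of the 5 genes with 3 values, and 0% of all 5011 genes, although 1518 genes had an unadjusted p under 0.05 and the fit per gene called 1 gene. Tsc22d3, Fkbp5 and Gadd45g had limma p values of 0.00340, 0.00462 and 0.0245 before adjustment. These 3 genes were below 0 on all 3 cDNA arrays, as were 26.3% of all genes. Their means were also -1 or lower, as for 6.39% of all genes. On the oligonucleotide array 7 of the 8 genes were below 0 on all 3 arrays, as were 34.1% of all genes. The mean ratio had 1 sign on both array types for 3 of the 5 genes and for 58.3% of 4702 genes.

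**Figure D4:**
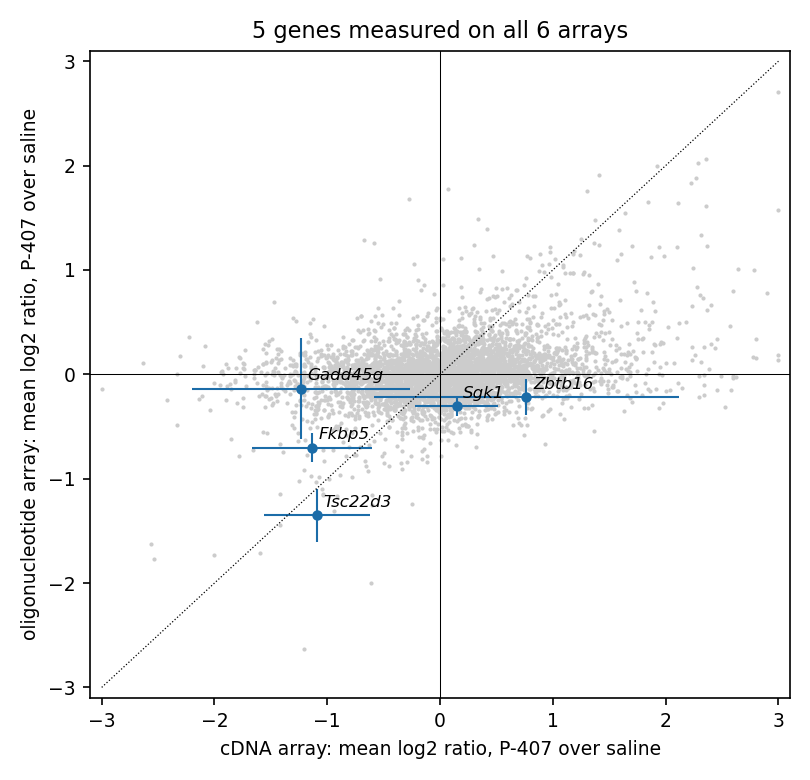
Mean log2 ratio of treated over control on the cDNA array (horizontal axis) against the oligonucleotide array (vertical axis) for 4702 genes (grey, beyond 3 in size drawn at 3) and for 5 of the 8 genes (blue, bars are 95% confidence intervals, dotted line of equality). Tsc22d3 and Fkbp5 lie below 0 on both axes with intervals that do not reach 0, and Zbtb16 and Sgk1 lie above 0 on the cDNA axis and below 0 on the oligonucleotide axis.

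The enzymes by which glucocorticoids drive amino acid breakdown and glucose production were lower in the same pools. Of 13 listed liver enzymes 11 were measured on the oligonucleotide array, with a median of -0.70. Among these 11, 10 were called lower and 0 higher, against 21.4% and 22% of all genes. Tat, tyrosine aminotransferase, long used as a marker of glucocorticoid action in liver, had -1.34, -1.42 and -0.93, a mean of -1.23 ± 0.26 (adjusted p = 7.13e-04). Tdo2, which opens the ring of tryptophan, fell by 0.91 ± 0.13, Gpt2, an alanine aminotransferase, by 0.79 ± 0.01, and Pck1 of gluconeogenesis by 0.73 ± 0.20. G6pc, glucose-6-phosphatase, was the 1 enzyme not called (-0.13 ± 0.15), named after its value was seen. On the cDNA array 5 of 6 measured enzymes had means below 0 and none was called, with a median of -0.34. Pck1 was the lowest there at -1.66, Tdo2 averaged -0.34 and G6pc 0.12.

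The other listed glucocorticoid-induced genes did not move one way. Of 19 measured, 5 were called lower and 4 higher, against 21.4% and 22% of all genes, with a median of 0.09. The clock gene Per1 fell (-0.60, -0.52 and -0.78, mean -0.63 ± 0.13, adjusted p = 0.00116), and Klf9, a zinc finger repressor, fell (-0.58 ± 0.11, adjusted p = 0.00109). The other lower genes were Nfkbia, Angptl4 and Cyp2b10, named here after their values were seen. Pdk4, a kinase that restrains glucose oxidation, rose by 1.29 ± 0.24, Rgs2, a brake on G protein signals, by 1.26 ± 0.15, Igfbp1, an IGF-binding protein, by 0.82 ± 0.37, and the cell cycle inhibitor gene Cdkn1a by 0.69 ± 0.16. On the cDNA array, where neither was called, Pdk4 averaged -0.67 and Rgs2 1.36. Dusp1, a phosphatase of stress kinases, had -0.10, 0.41 and 0.49 and was not called (adjusted p = 0.108).

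The gene of the receptor itself was slightly higher. Nr3c1 had 0.15, 0.16 and 0.29 on the oligonucleotide array, a mean of 0.20 ± 0.08 (adjusted p = 0.0186), and 0.65, 0.43 and 0.39 on the cDNA array (0.49 ± 0.14, adjusted p = 0.127). All 6 arrays lay above 0. Without pool 1 or without pool 2 none of the genes of its list was called higher. Those fits called 1996 and 2536 of all genes higher, against 3710 with all pools. Of 16 measured genes of the receptor, its chaperones and co-regulators, 7 were called lower and 2 higher, against 21.4% and 22% of all genes. Their median was -0.11. The other higher gene was the chromatin remodeller Smarca4 (0.21 ± 0.12), named after its value was seen. The chaperone genes Hspa8 (-0.59 ± 0.15), Stip1 (-0.51 ± 0.09), Hsp90aa1 (-0.38 ± 0.11) and Ptges3 (-0.23 ± 0.10) fell, while Fkbp4, the co-chaperone that competes with the product of Fkbp5, was at -0.17 ± 0.12 and not called (adjusted p = 0.0552). The cDNA array, with 0 calls, had Fkbp4 at -0.80, -0.78 and -0.90 (mean -0.83 ± 0.06, adjusted p = 0.0984) and Stip1 at a mean of -0.46. Hsp90aa1 averaged 0.10 and Ptges3 0.0067 there, so neither mean was below 0 on that type. Without pool 2, 4 genes of this list were lower, in a fit that called 2399 of all genes lower, against 3608 with all pools.

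Of 9 measured genes that set how much active hormone reaches the receptor, 3 were called lower and 0 higher on the oligonucleotide array, against 21.4% and 22% of all genes. Their median was -0.09, and 1 was lower without pool 1, in a fit that called 2029 of all genes lower, against 3608 with all pools. Serpina6, which encodes the corticosteroid-binding globulin of plasma, fell by 0.34 ± 0.17 on the oligonucleotide array and averaged 0.00 on the cDNA array. Hsd11b1, which regenerates active hormone inside hepatocytes, fell by 0.21 ± 0.13 on the oligonucleotide array, and its cDNA ratios of 0.33, 0.35 and 0.15 were all above 0 (adjusted p = 0.218). Akr1d1, which reduces steroids on the way to their clearance, fell by 0.58 ± 0.09. Cyp17a1, a hydroxylase of steroid synthesis named after its values were seen, differed by array type. Its cDNA ratios were -2.01, -1.98 and -2.03 (adjusted p = 0.0984), and its oligonucleotide mean was -0.087 ± 0.089 (adjusted p = 0.201). The mean of both types was -1.05 ± 0.06 and called (adjusted p = 0.0394).

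Inflammatory genes that glucocorticoids are known to repress were mostly higher. Of 18 measured, 11 were called higher and 1 lower, against 22% and 21.4% of all genes, with a median of 0.33. On the cDNA array the median of 9 was 1.09 with 0 called. Vcam1, an adhesion molecule for leukocytes, rose by 2.06 ± 0.15, the chemokine gene Ccl4 by 1.34 ± 0.01 and the monocyte chemokine gene Ccl2 by 1.23 ± 0.08. The 1 lower gene was the cytokine gene Il1b (-1.71 ± 0.24). Markers of other cells moved in these pools. Of 15 macrophage markers 11 were called higher and 3 lower, where 22% and 21.4% of all genes were. Their means ranged from -1.77 to 4.63, with list means of 1.13, 0.89 and 0.99 in pools 1, 2 and 3. The 3 lower macrophage genes, Cd163, Marco and Itgam, were named after their values were seen. Of 12 hepatocyte markers 0 were higher and 6 lower, against the same 22% and 21.4%. Hepatocyte marker means ranged from -1.23 to 0.05, with list means of -0.35, -0.34 and -0.28 in pools 1, 2 and 3. Tat, Cps1 and Ass1 stand in both the enzyme and the hepatocyte lists. The part of these shifts in the ratios of the 8 genes was not tested.

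**Figure D5:**
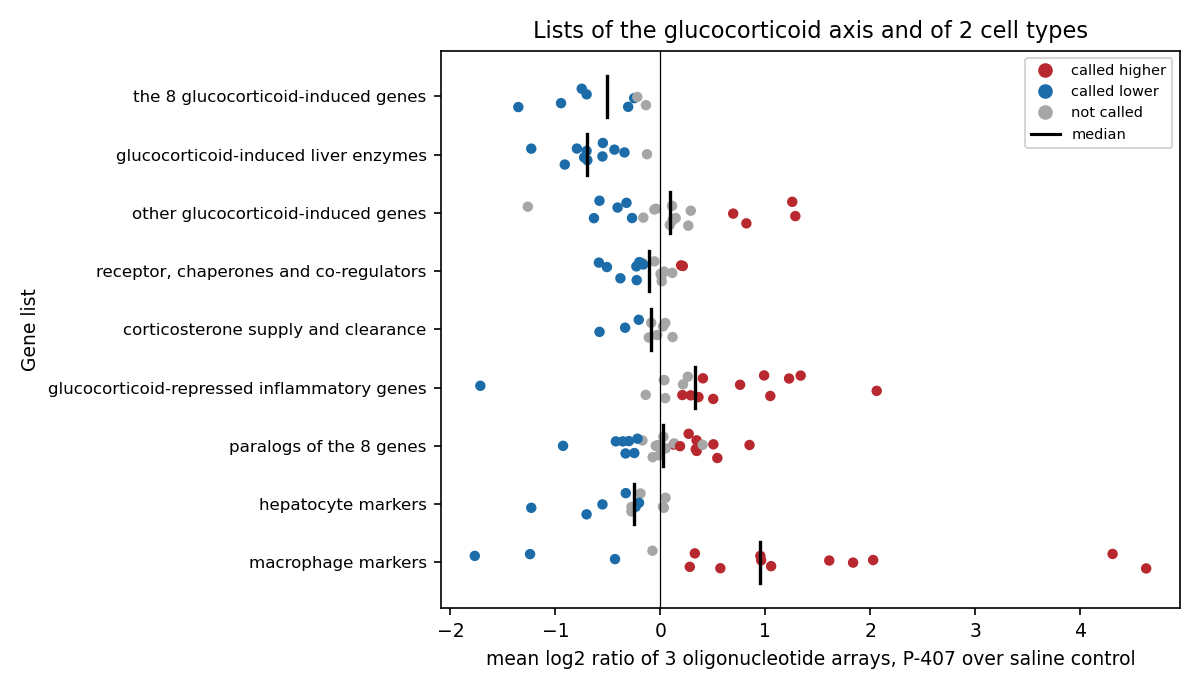
Mean log2 ratio on the oligonucleotide array (horizontal axis) for each measured gene of 9 lists, coloured by the call, with the list median as a bar. The 8 glucocorticoid-induced genes and the liver enzymes lie below 0, and the repressed inflammatory genes lie mostly above 0 with Il1b at -1.71.

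Relatives of the 8 genes did not share their direction as a set. Of 25 measured paralogs 9 were called higher and 7 lower, against 22% and 21.4% of all genes, with a median of 0.03. Gadd45b rose by 0.85 ± 0.24 and Gadd45a by 0.54 ± 0.22 on the oligonucleotide array, where Gadd45g averaged -0.14. Cebpb fell by 0.93 ± 0.20 and Cebpa by 0.33 ± 0.02, both bZIP factors of hepatocytes, in the direction of Cebpd. Tsc22d1 rose by 0.35 ± 0.09 where Tsc22d3 fell, Ddit4l rose by 0.51 ± 0.10 where Ddit4 fell, and Sgk2, a kinase expressed in liver, fell by 0.36 ± 0.10. Without pool 1, 6 paralogs were called higher, in a fit that called 1996 of 16871 genes higher, against 3710 with all pools.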

How the data were processed

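Gene expression in pooled mouse liver RNA was measured on 3 oligonucleotide and 3 cDNA 2-colour arrays. The authors deposited 1 value per feature and array, read here as a log2 ratio. The labels give the RNA in each dye but not the log base, the centring or which dye is the numerator, nor the scanner software, background correction and filters. The largest absolute value was 6.34, too large for log10 of a 16-bit range, and a natural log is possible. Treated (Cy5) over control (Cy3) was read from the order in the sample titles, and a turned ratio would turn every sign.

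Values of exactly 0 were taken as not measured, and the median of the other features was subtracted on every array (0.01, 0.01 and 0.01 for oligonucleotide arrays, -0.07, -0.09 and -0.02 for cDNA arrays, pools 1 to 3). Features with 1 gene symbol in the platform annotation entered (18658 of 22575 and 7410 of 13482), and features of a gene were averaged. limma 3.58.1 in R 4.3.3 tested the mean of 3 pools against 0 by array type, the mean of both arrays of a pool, and the difference between types, with Benjamini-Hochberg adjustment over all genes. Pool numbers pair the arrays by the design text, which says that each RNA was split. Deviations of the 2 arrays of a pool correlated at 0.06, 0.07 and 0.07 across 4702 genes. The 8 genes, the gene lists and the tests were chosen with earlier results of these data known. Genes outside the 8 are named where they are among the 4 largest called of their list or on a short list of fixed names. Alternatives were zeros kept, no centring, other rules for several features, other spread estimates, all features without averaging, the pool as a block and each pool left out. Labels do not say how mice were assigned to pools, and p-values measure the spread between these pools. Python 3.11.15, pandas 2.3.3 and matplotlib 3.10.9 made tables and plots.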

Additional observations from a re-analysis of the deposited data

How the results depend on the processing

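The 6 calls on the oligonucleotide array were made under every alternative run except the fit without a shared prior. Under that fit 0 of the 8 genes were called, and 0.237% of all genes. With the robust prior 7 were called, and 43.8% of all genes. With 1 pool left out, 6 to 7 of the 8 genes were called there, where 23.9% to 37% of all genes were. Gadd45g turned to 0.064 without pool 2 and was called at -0.47 without pool 3. On the mean of both array types 2 genes were called, and 0 with zeros kept or without the shared prior, settings that called 0% of all genes. With 1 pool left out, 0 were called without pool 1 or pool 2 (0% of all genes) and 3 without pool 3 (7.71%). Keeping zeros raised the genes tested to 6274, of which 0 were called. Array types differed for 0 of 5 genes (11.4% of all genes) and for 1 (Sgk1) without the shared prior (8.91% of all genes). They differed for 0 without pool 1 or without pool 2, where 0% of all genes did, and for 3 without pool 3, where 22.3% did. With the pool as a replicate block, 0 of 5 differed, and the pairing changed no call. Of the lists, genes of the receptor and its partners called higher numbered 0 to 1 and lower 4 to 6 with 1 pool left out, and hormone supply genes called lower 1 to 3. These fits called 1996 to 3180 of all genes higher and 2029 to 3064 lower, against 3710 and 3608 with all pools. The causes were not tested. No file gives signal over background.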

Other observations

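Further markers of cell types that liver RNA can hold moved unequally on the oligonucleotide array. Of 10 markers of stellate cells and fibroblasts 9 were called higher and 0 lower, with a median of 0.53, and of 8 neutrophil markers 7 were higher and 0 lower, with a median of 0.53. Of 11 lymphocyte markers 6 were higher and 0 lower (median 0.16), and of 5 cholangiocyte markers 2 were higher and 0 lower (median 0.10), where 22% of all genes were called higher. On the cDNA array, with 0 calls, the median was -0.285 over 8 lymphocyte markers (5 below 0) and -0.16 over 3 cholangiocyte markers (2 below 0). It was 0.63 over 8 stellate and fibroblast markers (3 below 0) and 0.067 over 5 neutrophil markers (1 below 0). Of 10 endothelial markers 0 were higher and 3 lower, where 21.4% of all genes were called lower, with a median of -0.02. Of 5 adipocyte markers 1 was higher and 2 were lower, with a median of -0.11. The cDNA medians of these lists were above 0, at 0.107 over 4 endothelial markers (1 below 0) and 0.66 over 2 adipocyte markers (1 below 0).

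Over the 3 oligonucleotide arrays, the genes with ratios nearest to those of Tsc22d3, by Euclidean distance on the log2 scale, were Krit1 (-1.62, -1.40 and -1.13 in pools 1 to 3, distance 0.073) and Plk3 (-1.73, -1.49 and -1.16, distance 0.18). With 3 arrays this likeness is a description only.

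The cDNA array carried 2 features of the glucocorticoid-induced clock gene Per1, and they disagreed. One had -3.20, -2.47 and -1.68 in pools 1 to 3, and the other had -0.01, 0.31 and -0.12. The single oligonucleotide feature of Per1 had -0.60, -0.52 and -0.78. Their cDNA mean of -1.20 is an average of unlike features. On the oligonucleotide array, the gene with the widest spread in the list of other glucocorticoid-induced genes, chosen after its values were seen, was Sult1e1, an estrogen sulfotransferase, with -1.37, -2.77 and 0.35 in pools 1 to 3 and no call (adjusted p = 0.0991). Pool 3 was thus the highest for Sult1e1, as it was for Gadd45g.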
